A study of Mus musculus with 7 samples.

Results

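Whole thymus from mice homozygous for a mutation of the fourth zinc finger of Ikaros (ZnF4-/-) was compared with whole thymus from wild type C57BL/6 mice, both at 4 weeks of age, by RNA sequencing. The comparison used 5 of the 7 libraries of the study, which were wild type replicates 1, 2A and 2B and ZnF4-/- replicates 1 and 2. All genes were eligible, and 10498 of 16734 genes were tested, those with a mean of at least 1 RPKM (reads per kilobase of exon, scaled to the mapped reads of the library) over the 7 libraries. The other 2 libraries, from mice homozygous for a mutation of the first finger (ZnF1-/-), entered the fit only for its estimates of the spread and of the batch. The labels name no background strain for the mutants and do not say whether each library came from its own mouse, so a p measures only the spread between these libraries. The RNA came from a strained suspension of the whole organ, in which fewer cells of a type and less RNA per cell cannot be told apart.

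Ikaros, encoded by Ikzf1, is a zinc finger transcription factor of lymphocytes and a tumour suppressor of T cells. The zinc fingers near its amino end bind DNA at sites with the core GGGAA, and those near its carboxyl end pair Ikaros proteins with each other. In the thymus Ikaros acts with the NuRD chromatin remodelling complex, and most thymocytes are at the double-positive stage, where both coreceptors, CD4 and CD8, are on the cell surface and the T cell receptor alpha locus is rearranged.

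The mutated finger is shown here beside the other DNA-binding fingers, as read from the Ikzf1 coding sequence on chromosome 11 of NCBIM37 (mm9), plus strand. The fourth finger spans 66 bases at 11658215 to 11658280, inside the coding exon at 11658198 to 11658320, which is exon 6 of the 8 exons of the transcript used. Capitals mark the codons of the cysteine and histidine pairs that hold the zinc ion.
Finger 1: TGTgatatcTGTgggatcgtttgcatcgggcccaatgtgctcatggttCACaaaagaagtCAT
Finger 2: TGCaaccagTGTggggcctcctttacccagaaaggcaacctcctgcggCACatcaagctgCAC
Finger 3: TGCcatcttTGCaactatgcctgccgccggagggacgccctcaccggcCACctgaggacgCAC
Finger 4: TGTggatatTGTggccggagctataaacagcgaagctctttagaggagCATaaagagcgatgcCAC
Fingers 1, 2 and 3 are 63 bases each. Finger 1 is at 11648508 to 11648570 in exon 4, and fingers 2 and 3 are at 11654027 to 11654089 and 11654111 to 11654173 in exon 5. Finger 4, read to its last histidine codon, is the longest of the DNA-binding group. Finger 4 and finger 1 each lie in an exon with no other finger. The deposited table holds 1 value for the whole of Ikzf1 and does not show single exons.

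For reference, the 250 bases before the transcript start are given for the largest rise (Ctnnd1, the first of its 2 listed starts), the second largest (Mmp14), a large fall (Dclk2) and the most abundant gene that fell (Cd8a). They come from RefSeq promoter sequences, placed by exact match on NCBIM37 at chr2:84499135-84499384 (minus strand), chr14:55050185-55050434 (plus), chr3:86724807-86725056 (minus) and chr6:71323171-71323420 (plus). Capitals mark GGGAA, or TTCCC for its reverse strand.
Ctnnd1: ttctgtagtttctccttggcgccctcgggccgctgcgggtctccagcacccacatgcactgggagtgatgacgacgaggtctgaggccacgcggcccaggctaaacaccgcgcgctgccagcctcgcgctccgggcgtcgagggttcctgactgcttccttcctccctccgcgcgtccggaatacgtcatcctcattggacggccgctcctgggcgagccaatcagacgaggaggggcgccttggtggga
Mmp14: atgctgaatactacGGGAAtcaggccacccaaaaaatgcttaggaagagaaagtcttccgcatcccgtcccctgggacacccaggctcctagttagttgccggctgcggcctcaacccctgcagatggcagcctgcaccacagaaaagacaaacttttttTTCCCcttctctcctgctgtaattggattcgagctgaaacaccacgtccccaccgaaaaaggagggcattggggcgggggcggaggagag
Dclk2: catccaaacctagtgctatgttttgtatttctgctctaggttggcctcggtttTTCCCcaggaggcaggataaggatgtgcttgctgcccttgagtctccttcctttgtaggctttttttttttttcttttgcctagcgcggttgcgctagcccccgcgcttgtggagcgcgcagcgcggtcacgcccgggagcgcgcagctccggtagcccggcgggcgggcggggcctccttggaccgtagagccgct
Cd8a: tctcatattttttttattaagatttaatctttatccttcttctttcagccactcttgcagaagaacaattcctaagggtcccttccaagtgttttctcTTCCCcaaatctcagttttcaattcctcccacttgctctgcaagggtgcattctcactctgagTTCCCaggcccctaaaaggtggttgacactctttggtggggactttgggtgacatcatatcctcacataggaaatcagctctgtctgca
The 5 letters occur on either strand 2 times in the windows of Mmp14 and Cd8a, 1 time in that of Dclk2 and 0 times in that of Ctnnd1. They occur in 55.9% of the 27025 promoter windows of the same length, so a match is common and describes only the letters. A promoter was listed for 72.3% of the genes that rose, 75.8% of those that fell and 79.4% of all tested genes. Among those listed, the 5 letters occurred in 57.0% of rises, 59.8% of falls and 58.0% of all tested genes. TGGGAA, on either strand, occurred in 19.9% of these rises, 29.6% of these falls and 20.1% of all. The differences were not tested, and genes without a listed promoter are missing.

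Replicate 1 of each group was read at 76 bp and the other replicates at 50 bp, and the sex of the mice went with the batch. Xist, the RNA of the inactive X chromosome, ranged from 90.6 to 109 RPKM at 76 bp and did not exceed 0.03 RPKM at 50 bp, so read length and sex cannot be told apart in the batch term. Between 10185 and 10695 genes per library reached 1 RPKM. Depth could be estimated only from the steps that whole reads leave in low values, at 20129000 reads for wild type replicate 1 and 6307000 for ZnF4-/- replicate 1. For the 50 bp libraries it is unknown. The T lineage markers Cd3e, Cd3g, Cd3d, Lck and Thy1 were at 147 to 1419 RPKM in all 5 libraries and did not pass the test.

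In ZnF4-/- thymus many weakly expressed genes rose steeply while several of the most abundant thymocyte genes fell by less than 1 log2 unit. Of the 10498 tested genes 863 passed (limma with the replicate number as a block, adjusted p under 0.05), or 8.22%. There were 640 rises (6.1%) and 223 falls (2.12%), so 74.2% of the changes were rises. That share leans to rises by construction, since 93 rises and 0 falls were of genes that reached 1 RPKM only through the ZnF4-/- libraries, with a mean under 1 RPKM over the other 5. Leaving them out, a choice made after seeing the data, 547 of 10332 genes rose (5.29%) and 223 fell (2.16%), and 71% of the changes were rises. Named later, Klrd1, Cxcr3, Ccr6, Cd163l1, Il18r1, Iigp1, Sema3f, Nrp2, Krt18, Lmna and Spry2 are among the 93. So are Maged1, Evc, F2, Gm4371, Fjx1, Gria2, Dock1, Aldh1l1 and Lmcd1, which are among the largest rises. At an unadjusted p under 0.05 by limma 11.5% of all tested genes were higher and 8.97% lower. A change of at least 1 log2 unit was seen in 268 rises and 45 falls. The median log2 fold change of all tested genes was -0.02. Without the block 235 genes rose (2.24%) and 32 fell (0.305%), and all 267 of these also passed with the block. The counts were 341 and 87 without wild type replicate 2B, and 554 and 132 without wild type replicate 2A.

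All 863 changes had the same sign within the 76 bp pair of libraries and within the 50 bp libraries, against each of wild type 2A and 2B. The fit used both batches, so a gene whose batches disagreed could hardly pass. Both ZnF4-/- libraries lay above all 3 wild type libraries for 608 of the rises and below them for 199 of the falls. Over all tested genes 12.5% lay above and 10.6% below. The batch differences share no library. Among the rises the median difference was 0.96 in the 76 bp and 0.88 in the 50 bp libraries, and among the falls it was -0.61 and -0.66. Across genes, which are not independent replicates, the batch differences correlated at Pearson's r = 0.55 and Spearman's rho = 0.27 over all tested genes.

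**Figure D1:**
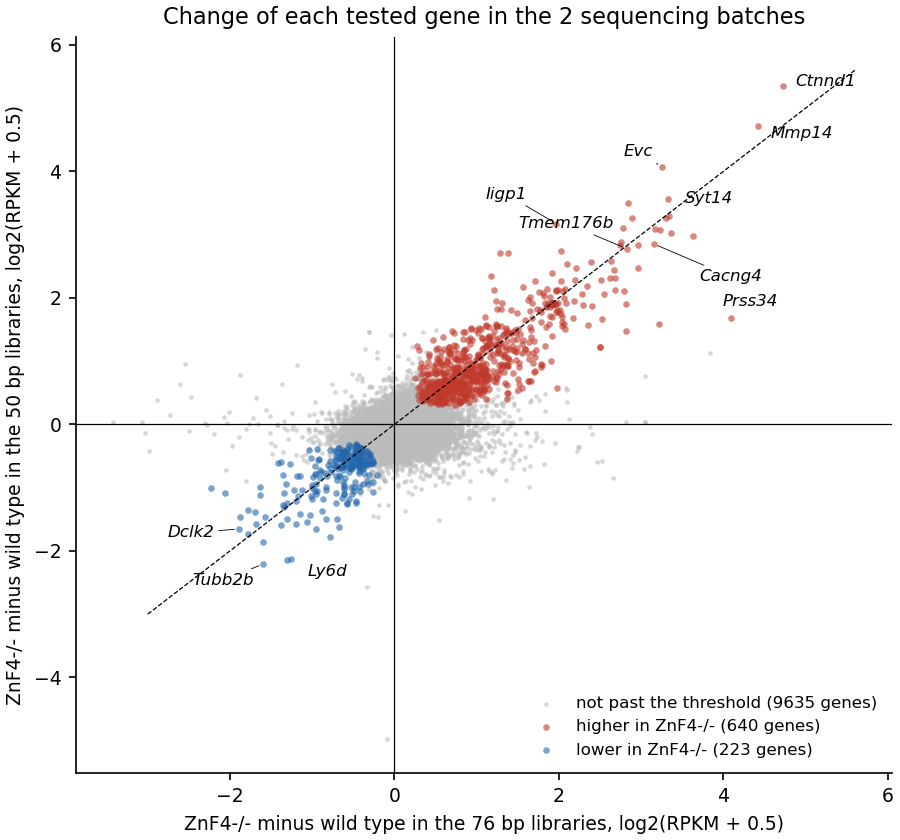
Difference between ZnF4-/- and wild type on the log2(RPKM + 0.5) scale for each of 10498 tested genes, in the 76 bp libraries (horizontal) and in the 50 bp libraries (vertical). Points are genes, coloured by the test, and the dashed line marks equal differences; the 640 rises and 223 falls lie at the upper right and lower left, with Ctnnd1 and Mmp14 farthest out and Prss34 far below the line.

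The direction of change went with the wild type level. Of 5103 genes at 1 to 10 RPKM in wild type, 410 rose (8.03%) and 73 fell (1.43%). Some of these rises, such as Maged1, Spry2 and Iigp1, reached the filter only through the ZnF4-/- libraries. The share of rises at this level therefore leans up by construction. The levels also rest on the wild type values that enter the fold changes. Of 4958 genes at 10 to 100 RPKM, 127 rose (2.56%) and 132 fell (2.66%). At 100 RPKM or more 4 of 227 genes rose and 17 fell (7.49%). The 4 abundant rises include Ikzf1. The median log2 fold change of the rises was 0.90 at 1 to 10 RPKM, 0.62 at 10 to 100 RPKM and 0.68 for the 4 rises above. That of the falls was -0.84, -0.57 and -0.55 at the same levels. Below 1 RPKM in wild type, 99 of 210 tested genes rose and 1 fell. Those genes reached the mean of 1 RPKM mostly through high mutant libraries and so had to differ, and their count supports nothing.

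**Figure D2:**
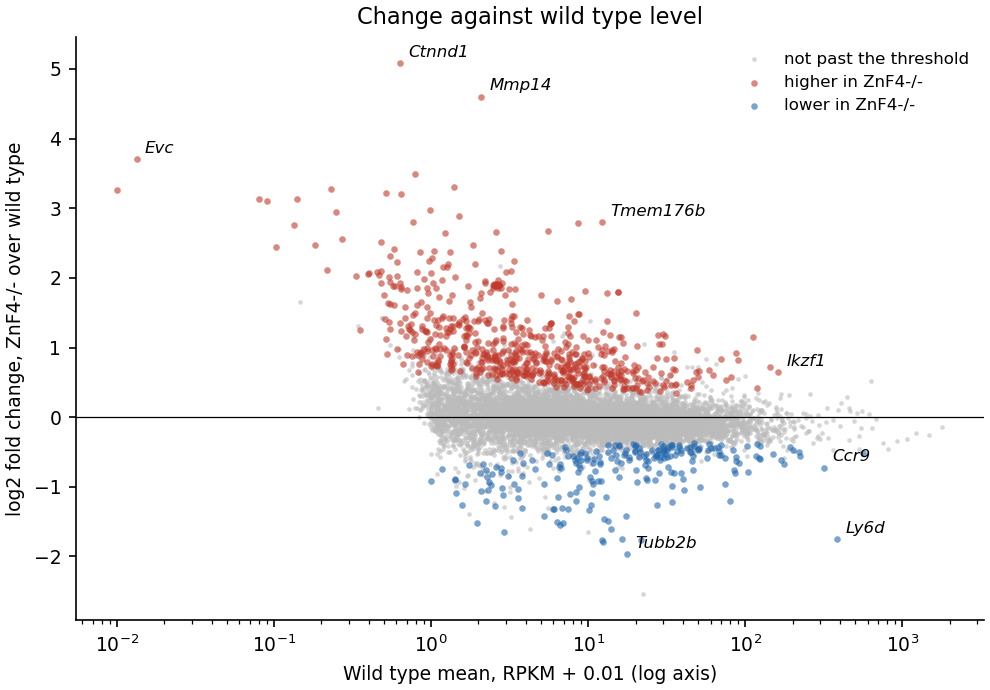
Log2 fold change of ZnF4-/- over wild type (vertical) against the mean wild type RPKM plus 0.01 (horizontal, log axis) for all tested genes, coloured by the test. Rises spread up to 5.08 for Ctnnd1 at the left, while the abundant genes at the right that passed are mostly falls, such as Ly6d and Ccr9.

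Ctnnd1 (chromosome 2, 84440228 to 84490922, minus strand) encodes p120 catenin, which binds cadherins at the membrane. It was at 0.77, 0.58 and 0.53 RPKM in wild type replicates 1, 2A and 2B and at 33.1 and 42.4 RPKM in ZnF4-/- replicates 1 and 2. The groups were far apart, with a log2 fold change of 5.08 ± 0.16 (SE; adjusted p = 6.67e-06). Mmp14 (chromosome 14, 55050441 to 55060095, plus strand) encodes a membrane-bound matrix metalloproteinase. Its values were 1.47, 1.99 and 2.71 RPKM in wild type and 41.8 and 74.3 RPKM in ZnF4-/- (4.6 ± 0.15, adjusted p = 6.67e-06). Both mutant libraries were high and the 50 bp library was the higher. Syt14 (chromosome 1, 194723404 to 194861911, minus strand), of the synaptotagmin family of membrane traffic proteins, was at 1.29 to 1.48 RPKM in wild type and at 17.6 and 18.5 RPKM in ZnF4-/- (3.30 ± 0.12, adjusted p = 9.59e-06).

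Of the other 12 of the 15 largest rises, those with a value above 0 in wild type had log2 fold changes of 2.88 to 3.71. Krt18, a keratin gene of simple epithelia, was at 0.63, 0.79 and 0.49 RPKM in wild type and at 7.58 and 12.3 RPKM in ZnF4-/- (3.20 ± 0.22). Maged1 (chromosome X, 91780813 to 91787482), of the MAGE family, went from 1.24, 1.59 and 1.65 RPKM to 13.0 and 14.7 RPKM (2.88 ± 0.14), and Cacng4, of the calcium channel gamma subunit family, from 0.30, 0.97 and 1.65 RPKM to 6.63 and 12.3 RPKM (2.98 ± 0.18). The others were Evc, F2, Gm4371, Sertad4, Fjx1, Gria2, Dock1, Aldh1l1 and Lmcd1, each at 0.98 RPKM or less in every wild type library. Krt18, Maged1 and these genes other than Sertad4 reached the filter only through the ZnF4-/- libraries and so had to differ. Lmcd1 was listed at 0 in wild type and at 5.68 and 3.44 RPKM in ZnF4-/-, so no fold is given. Exons of Aldh1l1, Gria2 and Sertad4 overlap other annotated transcripts, whose reads cannot be separated because the strand of the libraries is not stated.

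Among genes that wild type expressed well above 1 RPKM, the neighbours Tmem176a and Tmem176b, which encode related membrane proteins of immune cells, stood out after their values were seen. Tmem176b was at 10.1, 12.2 and 14.3 RPKM in wild type and at 74.3 and 93.7 RPKM in ZnF4-/- (2.80 ± 0.10, adjusted p = 1e-05). Tmem176a was at 6.92, 9.12 and 9.83 against 49.3 and 71.0 RPKM (2.79 ± 0.11). For both genes every mutant library was above every wild type library.

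A set of 13 genes was under 0.1 RPKM in all 3 wild type libraries and at 1 RPKM or more in both ZnF4-/- libraries, and 0 genes did the reverse. Dock1, Evc, Gria2 and Lmcd1 were tested and passed, but they reached the filter only through the ZnF4-/- libraries and so had to differ. The other 9 had means under 1 RPKM and were not tested. Among these, Lypd1 was at 0.02, 0.01 and 0.03 RPKM in wild type and at 3.33 and 2.92 RPKM in ZnF4-/-, and Yap1, the transcriptional effector of the Hippo pathway, was at 0.09, 0.06 and 0.09 against 1.15 and 2.21 RPKM. Fstl4, Gpr39, Kirrel, Lyplal1, Obsl1, Serpinh1 and Tln2 made up the rest. The set was chosen by these values, which are a description.

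The largest fall was that of Tubb2b (chromosome 13, 34218877 to 34222223, minus strand), a beta-tubulin gene. It was at 17.3, 21.1 and 14.2 RPKM in wild type and at 5.36 and 3.35 RPKM in ZnF4-/- (-1.97 ± 0.21, adjusted p = 0.000994). Reads of Tubb2b, Tubb2a and Tubb2a-ps2 could be split between near-identical copies, so the 3 falls, the last of -1.77, are uncertain one by one. Dclk2 (chromosome 3, 86590073 to 86724803, minus strand), a doublecortin-like kinase gene, was at 10.4, 14.2 and 11.8 against 2.42 and 3.78 RPKM (-1.77 ± 0.13, adjusted p = 0.000202). Ly6d (chromosome 15, 74592486 to 74593997, minus strand), a surface protein gene of lymphoid cells, was at 248, 474 and 428 RPKM in wild type and at 103 and 102 RPKM in ZnF4-/- (-1.75 ± 0.18, adjusted p = 0.00092). Ly6d was the one large fall among the most abundant genes, and its mutant libraries were nearly equal.

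The rest of the 15 largest falls ranged from -1.42 to -1.79. They included Fgf13, an intracellular member of the fibroblast growth factor family (10.1, 12.4 and 14.6 against 2.98 and 3.35 RPKM), and the sulfotransferase gene Chst10 (12.04, 14.9 and 15.02 against 3.41 and 4.67 RPKM). Both channel genes Mcoln3 and Cacna1e fell, by 1.54 and 1.52. Sdc4, a cell surface proteoglycan gene, fell by 1.5 and Unc5cl, related to netrin receptors, by 1.49. Mir25 lies inside Mcm7 and BB031773 shares exon sequence with Tctex1d1, so those values cannot be assigned to 1 gene. In all of these genes both ZnF4-/- libraries lay below the 3 wild type libraries.

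**Figure D3:**
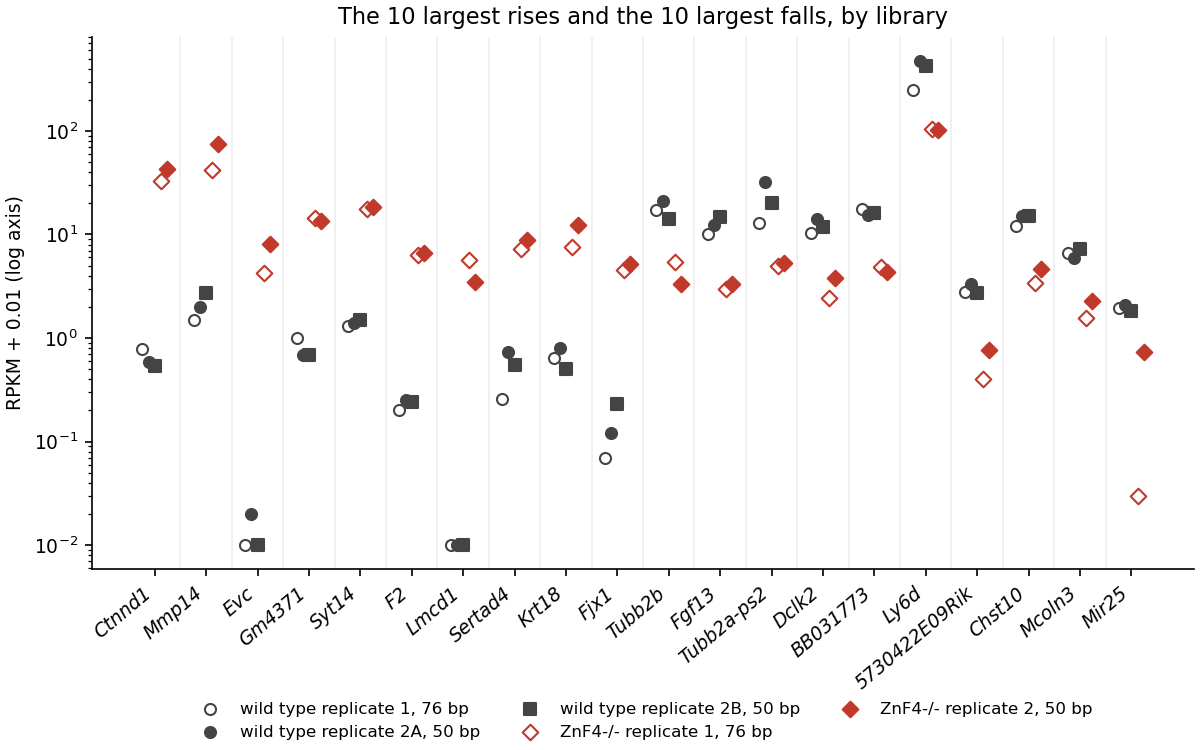
RPKM plus 0.01 (log axis) of the 10 largest rises and the 10 largest falls in each of the 5 libraries; open symbols are the 76 bp and filled symbols the 50 bp libraries, grey for wild type and red for ZnF4-/-. Both red symbols lie apart from the 3 grey ones for every gene shown, and Lmcd1 in wild type sits at 0.01 because it was listed at 0.

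Ikzf1 RNA itself was at a higher level in the mutant. It was at 142, 175 and 169.5 RPKM in wild type and at 238 and 257 RPKM in ZnF4-/-, with every mutant library above every wild type library (0.64 ± 0.10, adjusted p = 0.00737, and 0.198 without the block). Of the 5 Ikaros family genes tested 4 rose and 0 fell, with a median of 0.67 against -0.02 over all tested genes. Ikzf3, the gene of Aiolos, was at 82.4, 95.5 and 92.1 against 151 and 163 RPKM (0.82 ± 0.09, adjusted p = 0.00133). Ikzf4, the gene of Eos, was at 2.28 to 2.64 against 5.50 and 7.83 RPKM (1.26 ± 0.16), and its exons overlap a non-coding gene. Ikzf2, the gene of Helios, was at 13.1 to 21.8 against 27.9 and 25.5 RPKM (0.67 ± 0.13, adjusted p = 0.0181, and 0.283 without the block). Ikzf5 was at 4.22 to 6.49 against 6.23 and 4.82 RPKM and did not pass.

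Of the 13 NuRD subunit genes 0 rose and 1 fell by limma, with a median of -0.13. At an unadjusted p under 0.05, 1 was higher and 4 were lower, where 11.5% and 8.97% of all tested genes were. The fall was that of Mbd2, which encodes a methyl-DNA-binding subunit, at 74.5, 96.1 and 90.7 against 51.5 and 57.1 RPKM (-0.62 ± 0.09, adjusted p = 0.00582). The remodelling ATPase gene Chd4 was at 77.9 to 125 RPKM in wild type and at 87.0 and 119 RPKM in ZnF4-/- (0.05 ± 0.10).

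Of 18 genes of the double-positive stage tested 3 fell (16.7%), among them Ccr9 and Cd8a, where 2.12% of all tested genes fell. St6gal1 was the 1 rise, and the median was -0.32. Of the 18 genes 7 lay below all wild type libraries, where 10.6% of all tested genes did. Without the block 0 passed. At an unadjusted p under 0.05 with it 11 were lower and 2 higher, where 8.97% and 11.5% of all tested genes were. Of the 18 log2 fold changes 13 were below 0 and 5 above. Ccr9, a chemokine receptor gene of double-positive cells, was at 328, 287 and 333 RPKM in wild type and at 172 and 208 RPKM in ZnF4-/- (-0.73 ± 0.13, adjusted p = 0.011, and 0.12 without the block). Exons of Ccr9 overlap Slc6a20a. Cd8a was at 499, 584 and 613 against 397 and 386 RPKM (-0.51 ± 0.13, adjusted p = 0.0479), and passed in 7 of 15 other ways of processing. The groups did not overlap for Ccr9 or Cd8a.

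The other defining genes did not pass. Cd4 was at 401 to 499.6 RPKM in wild type and at 302 and 407 RPKM in ZnF4-/- (-0.32 ± 0.12, adjusted p = 0.171), and Cd8b1 at 586 to 972 against 440.4 and 658 RPKM (-0.46 ± 0.12, adjusted p = 0.0633). The recombinase genes Rag1 and Rag2 had log2 fold changes of -0.35 and -0.34, with both mutant libraries below wild type. Dntt, the gene of terminal transferase, was at 484 to 603 against 532 and 615 RPKM. The pre-T cell receptor gene Ptcra was at 20.1 to 34.4 against 35.5 and 34.2 RPKM. Among 23 T lineage transcription factor genes 3 fell, among them Myb and Tox2, and 1 rose (Foxo1), where 2.12% and 6.1% of all tested genes did. Their median was -0.11 (0.09 without ZnF4-/- replicate 2). Without the block 0 of them passed. Myb, needed for thymocyte development, was at 197, 250.2 and 218 against 147 and 146 RPKM (-0.56 ± 0.12, adjusted p = 0.0243, and 0.264 without the block). Tcf7 and Satb1, the most abundant of the list, had log2 fold changes of -0.14 and -0.12 with overlapping groups.

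**Figure D4:**
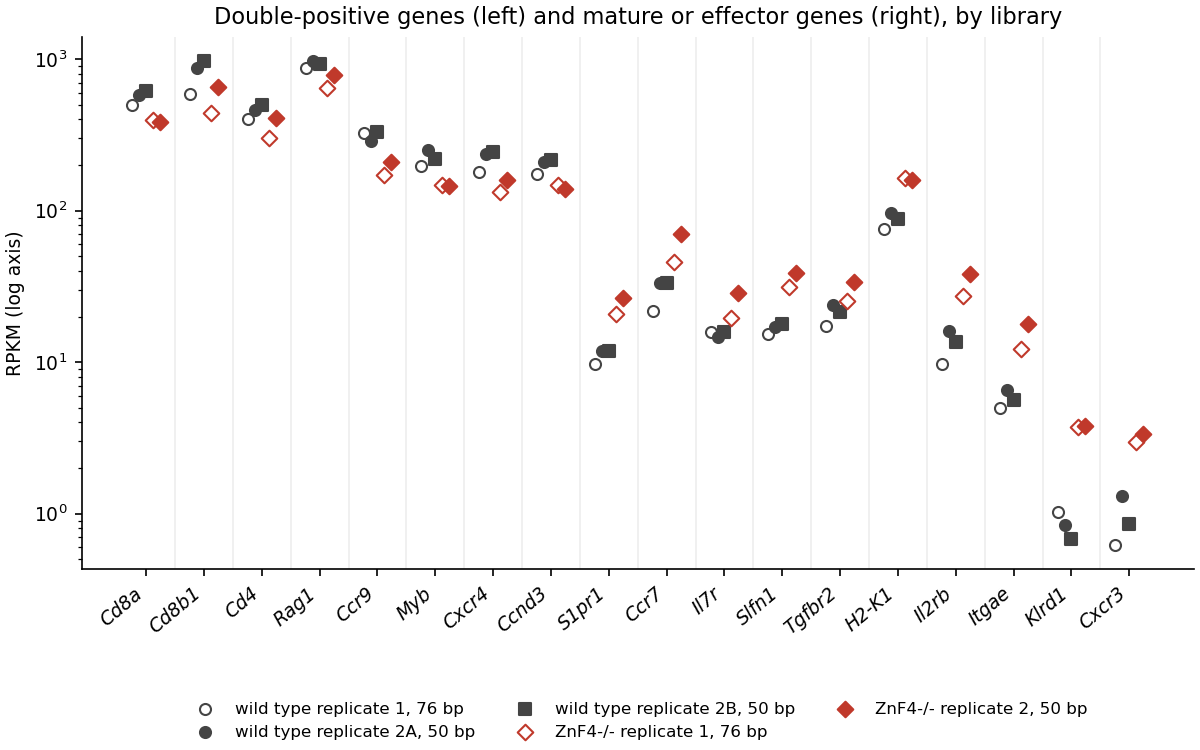
RPKM (log axis) in each of the 5 libraries for genes of double-positive thymocytes on the left and for genes of mature, presenting or effector cells on the right; open symbols are the 76 bp and filled symbols the 50 bp libraries, grey for wild type and red for ZnF4-/-. Cd8a and Ccr9 lie lower in both red symbols and S1pr1, Il2rb and Klrd1 higher, while Cd4 and Cd8b1 overlap.

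Some genes that mark mature thymocytes and their exit rose. Of 23 tested 6 rose and 1 fell, where 6.1% and 2.12% of all tested genes did. The median was 0.37 (0.25 without ZnF4-/- replicate 2). Without the block 2 rose. S1pr1, which encodes a sphingosine phosphate receptor needed for exit, was at 9.67, 11.9 and 11.8 RPKM in wild type and at 20.9 and 26.4 RPKM in ZnF4-/- (1.1 ± 0.09, adjusted p = 0.00039). Ccr7, which draws selected thymocytes into the medulla, was at 21.9, 33.2 and 33.4 against 45.7 and 70.3 RPKM (1.04 ± 0.10, adjusted p = 0.000573). Il7r, the interleukin 7 receptor gene, was at 14.7 to 15.7 against 19.7 and 28.7 RPKM (0.64 ± 0.14, adjusted p = 0.0269). Slfn1, Tgfbr2 and Ms4a6b were the other rises. The fall was that of Cxcr4, the receptor that holds immature thymocytes in the cortex, at 179, 237 and 244 against 134 and 159.9 RPKM (-0.50 ± 0.11, adjusted p = 0.0342, and 0.534 without the block). The most abundant members did not pass. Cd52 was at 443 to 583 against 407 and 372 RPKM and Crip1 at 117 to 240.2 against 92.2 and 116 RPKM.

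Chemokine receptor genes changed in both directions. Of 8 tested 5 rose (Ccr6, Ccr7, Ccr8, Cxcr3 and Cxcr6) and the 2 most abundant, Ccr9 and Cxcr4, fell. Ccr6 and Cxcr3 reached the filter only through the ZnF4-/- libraries and so had to differ. Of the other 6 tested 3 rose and 2 fell, where 5.29% and 2.16% of all genes tested without that help did. Ccr8 was at 6.91, 8.44 and 8.95 against 16.9 and 26.5 RPKM (1.38 ± 0.17, adjusted p = 0.0023), and Ccr4 at 20.6 to 24.5 against 20.0 and 23.1 RPKM did not pass. Of 25 cytokine receptor genes 7 rose and 3 fell, where 6.1% and 2.12% of all tested genes did, and the median was 0.14. Il18r1 among the rises reached the filter only through the ZnF4-/- libraries, and of the other 24 tested 6 rose. Il18r1, the interleukin 18 receptor gene, was at 1.39, 1.06 and 0.90 against 3.87 and 5.96 RPKM (1.72 ± 0.23), and Il6ra at 2.68 to 5.73 against 7.78 and 10.9 RPKM (1.17 ± 0.17). Il4ra fell from 29.4, 45.0 and 45.1 to 14.5 and 25.1 RPKM (-0.90 ± 0.09, adjusted p = 0.000835) and Il12rb1 by 1.34. Ifngr1, named after its values were seen, fell by 0.53. The common gamma chain gene Il2rg was at 246 to 301 against 230.3 and 270.1 RPKM.

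Some effector and regulatory genes, most at low levels, rose. Of 25 cytotoxic and NK-like genes 15 were not tested, and of the 10 tested 5 rose and 0 fell, and 3 passed without the block. Klrd1 and Cxcr3 among the rises reached the filter only through the ZnF4-/- libraries and so had to differ. Of the other 8 tested 3 rose. Klrd1, the gene of the NK receptor CD94, was at 1.02, 0.84 and 0.68 RPKM in wild type and at 3.76 and 3.78 RPKM in ZnF4-/- (1.66 ± 0.17, adjusted p = 0.000832). Il2rb, the receptor chain shared by interleukins 2 and 15, was at 9.70, 16.1 and 13.6 against 27.2 and 38 RPKM (1.38 ± 0.11, adjusted p = 0.00029). The groups were apart for both genes. Gzma and Ccl5, of killer cells, did not pass, the first at 22.3 to 31.6 against 42.5 and 37.3 RPKM and the second at 9.28 to 10.8 against 11.6 and 8.47 RPKM. Of 9 gamma-delta and IL-17 type genes tested 3 rose, but Cd163l1 and Ccr6 reached the filter only through the ZnF4-/- libraries, and of the 6 that did not depend on them 1 rose. Cd163l1, the gene of a gamma-delta T cell scavenger receptor, was at 1.02, 1.27 and 0.78 against 6.33 and 4.34 RPKM (1.93 ± 0.24, adjusted p = 0.00213), Rora rose by 1.27 and Ccr6 by 1.00.

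Of 16 regulatory T cell genes 7 rose and 0 fell, where 6.1% and 2.12% of all tested genes did. The median was 0.53, while 1 passed without the block. Itgae, the integrin alpha E gene, was at 5.02, 6.53 and 5.67 against 12.2 and 17.8 RPKM (1.36 ± 0.12, adjusted p = 0.000459). Nrp1 was at 15.4 to 15.8 against 25.5 and 44.6 RPKM (1.15 ± 0.16). The TNF receptor genes Tnfrsf4 and Tnfrsf9 rose by 0.75 and 0.84. The defining factor gene Foxp3 was at 3.62, 4.11 and 4.49 against 4.77 and 6.10 RPKM and did not pass (0.43 ± 0.13, adjusted p = 0.0976). Il2ra, the high-affinity interleukin 2 receptor chain, was lower in both mutant libraries, at 13.7 and 9.72 against 15.1 to 17.2 RPKM, and did not pass.

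Many interferon-stimulated genes rose. Of 34 tested 18 rose and 1 fell, with a median of 0.63 (0.39 without ZnF4-/- replicate 2), and 23 lay above all wild type libraries. Of all tested genes 6.1% rose, 2.12% fell and 12.5% lay above. Without the block 7 rose. Leaving out 2 genes that reached the filter only through the ZnF4-/- libraries, Iigp1 among them, 17 of 32 rose with the block. Iigp1, an interferon-inducible GTPase gene, was at 1.75, 0.72 and 1.15 RPKM in wild type and at 8.29 and 12.3 RPKM in ZnF4-/- (2.64 ± 0.28, adjusted p = 0.000926). Oasl2, of the oligoadenylate synthetase family, was at 2.47 to 3.96 against 10.03 and 12.5 RPKM (1.63 ± 0.20). Ifih1, a sensor of viral RNA named after its values were seen, was at 2.41 to 2.87 against 5.49 and 6.97 RPKM (1.11 ± 0.16). The median difference of the list was 0.41 in the 76 bp and 0.85 in the 50 bp libraries. Stat2 was at 14.9 to 18.5 against 13.9 and 17.5 RPKM, and Epsti1 fell from 26.9, 42.5 and 33.1 to 11.5 and 15.9 RPKM (-1.22 ± 0.13, adjusted p = 0.00098).

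Of 17 MHC class I and antigen processing genes 6 rose and 0 fell, where 6.1% and 2.12% of all tested genes did. The log2 fold changes of all 17 ranged from 0.09 to 1.35. Psmb8, at 0.10, was at 0.43 in the 76 bp and -0.15 in the 50 bp libraries, with overlapping groups. Without the block 2 rose. H2-K1, a classical class I gene, was at 75.7, 96.3 and 88.6 against 165 and 159.9 RPKM (0.92 ± 0.11, adjusted p = 0.00206). Nlrc5, the transactivator of class I genes, was at 6.32 to 7.24 against 11.7 and 14.7 RPKM (0.95 ± 0.12, adjusted p = 0.0028). H2-D1, H2-Q7, Tapbp and Tap1 were the other rises, and reads of the H2 genes may be split between near-identical copies. The most abundant member, B2m, was at 526 to 727 against 885 and 919 RPKM and did not pass (0.52 ± 0.16, adjusted p = 0.103). Of 7 class II genes H2-Oa rose by 0.62 and H2-Ob fell by 0.61. Of 6 Schlafen genes, of lymphocyte quiescence, Slfn1, Slfn5 and Slfn9 rose, the last from 1.98 to 3.06 in wild type to 11.3 and 8.31 RPKM (1.79 ± 0.12).

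**Figure D5:**
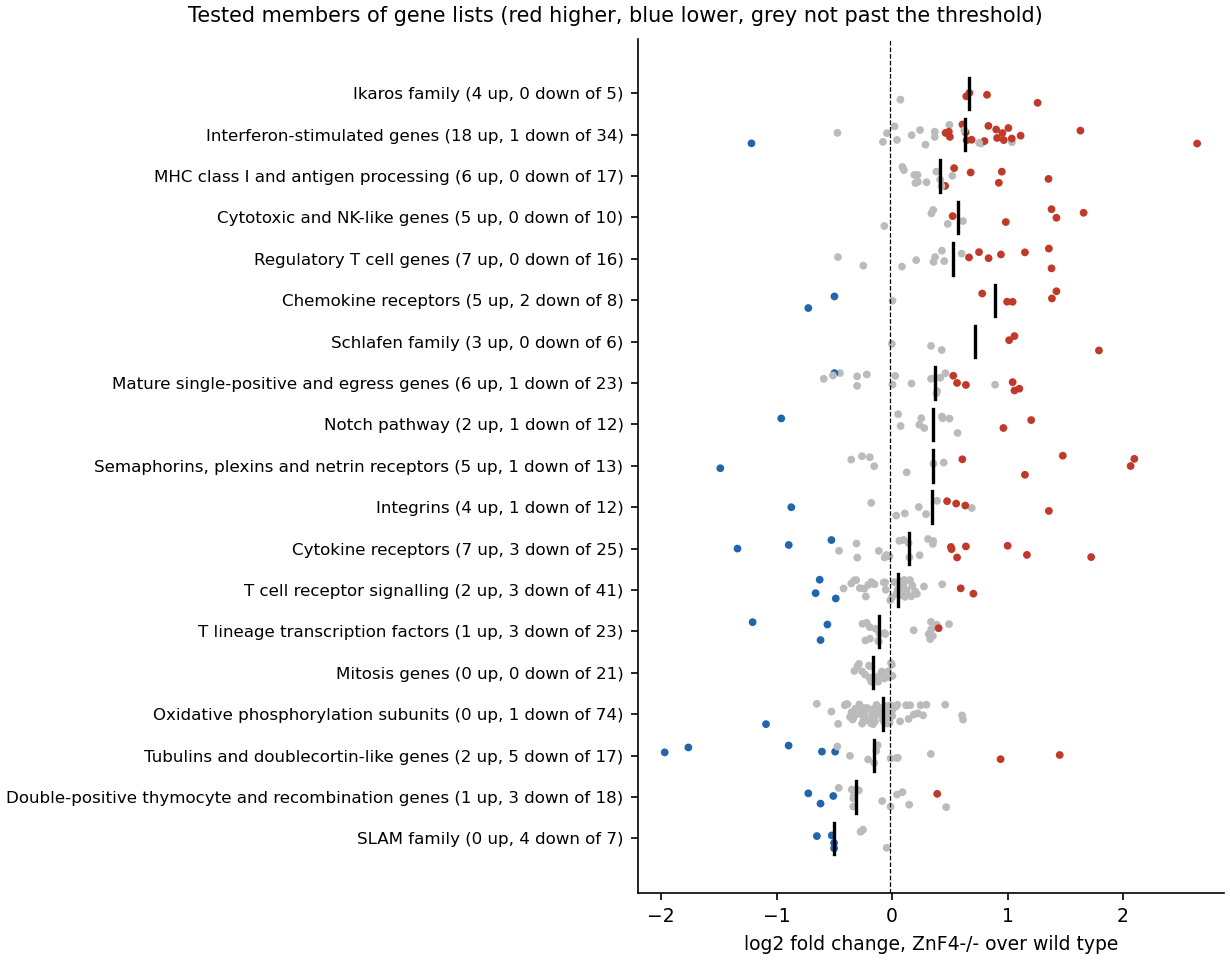
Log2 fold change of ZnF4-/- over wild type for each tested member (points, coloured by the test) of 19 gene lists, with the list's median as a black bar and the median of all tested genes as a dashed line. Points are spread vertically only to keep them apart; the interferon-stimulated list has 18 rises of 34 and the SLAM family 4 falls of 7.

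Of 12 Notch pathway genes tested 2 rose and 1 fell, where 6.1% and 2.12% of all tested genes did. Their log2 fold changes were above 0 in 11 and below 0 in 1, where 4803 of all 10498 tested genes were above 0. Notch1, the receptor that commits progenitors to the T lineage, was at 34.6, 63.2 and 49.6 RPKM in wild type and at 82.5 and 93.0 RPKM in ZnF4-/- (0.96 ± 0.16, adjusted p = 0.00871, and 0.356 without the block). Its target Dtx1 was at 4.43, 9.40 and 8.38 against 18.9 and 13.4 RPKM (1.20 ± 0.30, adjusted p = 0.0455), with differences of 1.98 in the 76 bp and 0.57 in the 50 bp libraries. Nrarp, a feedback inhibitor, fell from 1.17, 2.07 and 1.67 to 0.62 and 0.49 RPKM (-0.96 ± 0.20). Myc was at 28.4 to 39.6 against 44.9 and 36.9 RPKM. Over 12 tested genes the median was 0.35, which was 0.10 without ZnF4-/- replicate 1. Of 6 early progenitor genes tested Kit rose, from 2.02 to 2.31 RPKM in wild type to 4.12 and 4.69 RPKM (0.91 ± 0.13, adjusted p = 0.00384).

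Of 41 T cell receptor signalling genes 2 rose (4.88%) and 3 fell (7.32%), where 6.1% and 2.12% of all tested genes did. The median was 0.05 (-0.07 without ZnF4-/- replicate 1), and 0 passed without the block. The TEC family kinase genes Tec and Txk, which are neighbours, fell by 0.66 and 0.63. Cblb, a ubiquitin ligase gene that restrains the receptor, rose by 0.59 and Egr3, an early target of the receptor, by 0.70. The SLAM family holds receptors, and their partners, that signal between double-positive cells. Of 7 tested 4 fell and 0 rose, where 2.12% and 6.1% of all tested genes did. The median was -0.50, and 0 passed without the block. Sh2d1a, the gene of the adaptor SAP, was at 80.5, 107 and 87.0 against 52.3 and 60.7 RPKM (-0.65 ± 0.11, adjusted p = 0.0111). Slamf1, Slamf6 and Cd84 fell by 0.52, 0.50 and 0.50. Ly9 was at 31.8 to 41.0 against 28.8 and 40.6 RPKM, with overlapping groups and batch differences of -0.14 and 0.04. Of 8 genes of the Ly6 family and Thy1, Ly6d, Ly6k and Lypd6b fell and 0 rose, and at an unadjusted p under 0.05 by limma 2 were higher, where 11.5% of all tested genes were.

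Adhesion, protease and guidance genes held several steep rises from low levels. Besides Ctnnd1, alpha catenin (Ctnna1) rose from 6.75, 9.41 and 9.88 to 19.6 and 28.01 RPKM (1.49 ± 0.09, adjusted p = 0.000153), while Jup and Cdh24 fell by 0.73 and 0.76 and beta catenin (Ctnnb1) was at 83.4 to 103 against 70.2 and 97.8 RPKM. Adam19, of the membrane-bound ADAM proteases, was at 2.54, 3.17 and 2.61 against 19.1 and 14.2 RPKM (2.38 ± 0.18, adjusted p = 0.000276). Adam10 and Adam17 had log2 fold changes of -0.03 and -0.17. The semaphorin genes Sema3f and Sema4a rose by 2.07 and 1.48 and the neuropilin gene Nrp2 by 2.10. Sema3f and Nrp2 reached the filter only through the ZnF4-/- libraries and so had to differ. Of the other 11 semaphorin, plexin and netrin receptor genes tested 3 rose and 1 fell. Of 12 integrin genes Itgae, Itga6, Itgb1 and Itgb3 rose, and Itga4 fell from 29.7, 21.3 and 18.9 to 15.6 and 10.9 RPKM (-0.87 ± 0.10, adjusted p = 0.00111). Exons of Itga4 overlap Cerkl.

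Of 35 ion channel and glutamate receptor genes tested 5 rose and 3 fell. Of these rises 2 reached the filter only through the ZnF4-/- libraries and so had to differ. Of the 32 tested without that help 3 rose and 3 fell (9.38% each), where 5.29% and 2.16% of all such genes did. Scn4b, a sodium channel subunit gene, was at 6.37, 8.35 and 8.32 against 15.8 and 18.8 RPKM (1.16 ± 0.11, adjusted p = 0.000595). Its neighbour Scn2b, named after its values were seen, rose by 1.36. Of 17 tubulin and doublecortin-like genes 5 fell, while Tuba8 rose from 2.85 to 3.91 RPKM in wild type to 8.25 and 10.8 RPKM (1.45 ± 0.16). The most abundant, Tubb5, was at 497 to 709 against 695 and 553 RPKM. Of 28 keratin and other filament genes 25 were not tested, and Krt18 and Lmna reached the filter only through the ZnF4-/- libraries. Vim rose from 60.4, 79.1 and 87.0 to 91.6 and 118 RPKM (0.54 ± 0.10). Spry2, a feedback inhibitor of receptor tyrosine kinases, rose from 1.28, 1.37 and 1.14 to 6.23 and 8.66 RPKM (2.20 ± 0.17, adjusted p = 0.00032). It too reached the filter only through the ZnF4-/- libraries.

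Few genes of proliferation and metabolism passed. Of 21 mitosis genes 0 passed by limma with or without the block, 4 were lower at an unadjusted p under 0.05, where 8.97% of all tested genes were, and the median was -0.17. Of 25 DNA replication genes Pcna fell by 0.58, with overlapping groups. Of 15 glycolysis genes 0 passed by either fit, and at an unadjusted p under 0.05 with the block 1 was higher and 1 lower, where 11.5% and 8.97% of all tested genes were. In 74 oxidative phosphorylation, 79 ribosomal protein and 20 cholesterol synthesis genes 0 rose and 1 fell in each list, with medians of -0.08, -0.04 and -0.06, and 0 passed without the block. Those medians were 0.08, 0.08 and 0.03 without ZnF4-/- replicate 2, and -0.27, -0.14 and -0.16 without ZnF4-/- replicate 1. Single regulators changed more. Cdkn1a, a cell cycle inhibitor and p53 target, was at 3.51, 1.99 and 3.14 RPKM in wild type and at 8.2 and 8.38 RPKM in ZnF4-/- (1.39 ± 0.21, adjusted p = 0.00517). Pmaip1, the gene of the pro-apoptotic protein NOXA, was at 0.73, 0.93 and 0.85 against 6.51 and 6.27 RPKM (2.37 ± 0.16, adjusted p = 0.000164). The p53 targets Fas and Sesn1 fell by 0.48 and 0.58. Cdk2 fell by 0.47, and so did the D-type cyclin gene Ccnd3, whose exons overlap Bysl. In the BCL-2 family Mcl1 was at 78.0 to 83.0 against 74.9 and 83.4 RPKM.

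Markers of other cells in the organ were measured beside these lists, and their part in the results was not tested. The epithelial markers summed to 18.8 to 24.8 RPKM in wild type and to 49.9 and 57.3 RPKM in ZnF4-/-. Of the 14 genes 5 were tested, and Krt18 and Cldn4 rose, the second from 6.73, 12.9 and 8.94 to 29.3 and 34.2 RPKM. Several epithelial genes stayed near 0, with Foxn1 at 0.06 RPKM or less, Krt5 at 0.14 or less, Krt14 at 0.01 or less, Krt8 at 0.35 or less and Aire at 0.40 or less in all 5 libraries. Others were higher and did not pass. Epcam was at 1.64 to 3.02 RPKM in wild type and at 2.05 and 2.23 RPKM in ZnF4-/-, and Ly75 at 3.53 to 4.76 against 4.17 and 4.93 RPKM. Macrophage and granulocyte markers summed to 177 to 217 RPKM in wild type, to 646 RPKM in ZnF4-/- replicate 1 and to 226 RPKM in replicate 2. S100a8 made up much of this, at 297 RPKM in ZnF4-/- replicate 1 and at 48.6 to 76.4 RPKM in the other 4. Of 12 tested C1qa and C1qc rose, with overlapping groups. Prg2, Prss34 and Mcpt8, granule genes of eosinophils, basophils and mast cells named after their values were seen, rose by 2.29, 2.77 and 2.12, with larger differences in the 76 bp batch (3.22, 4.09 and 2.82) than in the 50 bp batch (1.58, 1.68 and 1.47).

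B lineage markers summed to 21.6 to 26.1 RPKM in wild type and to 16.9 and 21.1 RPKM in ZnF4-/-, and Cd79b fell by 0.52. Dendritic cell markers summed to 11.8 to 13.2 RPKM against 19.9 and 16.1 RPKM, and Ccl22 rose. Erythroid markers summed to 31.2 to 44.9 RPKM against 62.8 and 75.7 RPKM, with Hbb-b1 at 7.26, 23.7 and 15.2 against 43.4 and 44.9 RPKM, a gene with a near-identical copy. Fibroblast markers other than Thy1 summed to 4.75 to 20.3 RPKM against 16.4 and 33.7 RPKM. Pdgfrb rose by 1.42, while Pdgfra was at 0 and Col1a1, Col1a2 and Col3a1 were at 0.25 RPKM or less in all 5 libraries. Endothelial markers summed to 29.7 to 41.9 RPKM against 37.96 and 42.3 RPKM.

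Some changed genes lay next to each other. Of 10498 tested genes 10212 could be placed on NCBIM37. Among changed genes 14.9% had a changed gene as the next tested gene on the chromosome, against 7.48% among the others. Of 122 adjacent changed pairs 74 rose together, 28 fell together and 20 went in opposite directions. A run of 6 falls lay on chromosome 4 at 102658984 to 102887769 (Tctex1d1, BB031773, Insl5, Wdr78, Mier1 and Slc35d1), and a run of 5 rises on chromosome 1 at 193821311 to 194956445 (Traf5, Rcor3, Sertad4, Syt14 and Diexf). In the first run the log2 fold changes were -1.42 for Tctex1d1, -1.76 for BB031773, -1.26 for Insl5, -0.99 for Wdr78, -0.59 for Mier1 and -0.54 for Slc35d1. Slamf1, Cd84 and Slamf6 on chromosome 1 fell side by side, as did Lynx1, Ly6d and Ly6k on chromosome 15. Next to Ikzf1, which rose, Fignl1 fell from 15.7, 15.7 and 14.5 to 9.38 and 10.02 RPKM (-0.64 ± 0.10, adjusted p = 0.00676). These runs were chosen after the values were seen, and reads of overlapping or near-identical neighbours may be shared.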

How the data were processed

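Polyadenylated RNA of whole thymus was measured in 3 wild type, 2 ZnF1-/- and 2 ZnF4-/- libraries. The authors deposited 1 table of RPKM values, normalised to exon length and mapped reads. SeqMonk and an NCBI annotation served to obtain the exonic reads, and 1 transcript was kept for each gene, per the submitters' design text. TopHat, bedtools and build mm9 come from the submitters' processing notes, and versions are not given in the sources used here. Strand and total reads are likewise not given in the sources used here, so precision is known only from the spread between libraries. Whole-read steps, within 0.006 RPKM, gave a depth for the 76 bp libraries alone: 30.6% of the low values of wild type replicate 1 and 55.4% of those of ZnF4-/- replicate 1 lay on them, against 9.37% and 10.6% by chance.

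Values were transformed as log2(RPKM + 0.5), which understates the fold of low genes. Genes whose mean reached 1 RPKM were fitted with limma 3.58.1 (lmFit, eBayes with a trend) in R 4.3.3 on group and replicate number, over all 7 libraries, with 3 residual and 4.96 prior degrees of freedom. Each p is a two-sided p from limma, adjusted by Benjamini and Hochberg over the 10498 genes, with a threshold of 0.05. A permutation of labels was not run, since so few libraries cannot reach that threshold. The numbers pair the samples: per the labels' protocols replicate 1 was sequenced apart from the rest, and deviations from group means correlated at 0.49 to 0.74 in the 8 pairs of libraries that share a number. Fits of the same design were tested on simulated data, where the share of false calls with the block was above the nominal threshold and above that without the block, so calls near the threshold are uncertain. Whether wild type 2A and 2B are separate mice is not stated, and their mean was tried as 1 library.

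Members and gene lists were chosen with earlier results of these data known. Genes named were Ikzf1, the 15 largest rises and falls, the 10 most abundant changed genes, per list up to 5 changed and 2 abundant unchanged members, and cell type markers. Some further changed members of lists and the genes of neighbour runs were chosen after their values were seen. Coordinates come from the GENCODE annotation of NCBIM37 and promoter sequences from RefSeq (GRCm38.p6). Some changed genes of the lists are not reported here. The 15 alternatives, and 1 added after seeing the data, are given in the closing section.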

Additional observations from a re-analysis of the deposited data

Results flagged for a closer look

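Of 47 gene lists, 7 had a median difference between ZnF4-/- and wild type of opposite sign in the 76 bp and the 50 bp libraries. In 4 of them this held against wild type 2A and 2B alike. The difference between the batches was not tested, and it cannot be told apart from sex. T lineage transcription factors had a median log2 difference of 0.17 in the 76 bp and -0.12 in the 50 bp libraries. T cell receptor signalling genes were at 0.08 and -0.0818. The BCL-2 family was at 0.31 and -0.0909, and oxidative phosphorylation subunits were at 0.09 and -0.28. In the other 3 the sign against 2A and 2B differed: MHC class II genes were at 0.89 and -0.03, cadherins and catenins at 0.25 and -0.04, and synaptotagmins and SNAREs at 0.10 and -0.06. Over all tested genes the medians were 0.05 and -0.07.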

How the results depend on the processing

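The fit was repeated under 15 alternatives, and all 863 changes kept their sign in each one that tested them. Without the replicate block 235 genes rose and 32 fell, the rises being 88% of the changes (74.2% as reported, 61.7% at the lowest, without ZnF4-/- replicate 1), and every one of the 267 also passed with the block. With a mean of at least 5 RPKM as the filter 280 rose, fewer genes being tested. With no filter 896 rose and 188 fell, and with wild type and ZnF4-/- libraries alone 557 and 164. Leaving out genes that reached the filter only through ZnF4-/-, an alternative chosen after seeing the data, gave 547 and 223. With wild type 2A and 2B averaged into 1 library 121 fell, against 447 rises. Leaving out 1 library gave 341 to 663 rises and 87 to 328 falls. The lowest counts, 341 and 87, came without wild type replicate 2B, and 132 fell without wild type replicate 2A; the cause was not tested. Other pseudocounts, scalings and the untrended prior gave 629 to 718 rises. In all 15 alternatives 73 rises and 21 falls passed. Among the most abundant falls Cd8a passed in 7, Cxcr4 in 6, Ccnd3 in 6 and Myb in 8 of 15, and Ccr9 in 12. At 50 bp no depth could be recovered, so counting error cannot be given for low genes.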

Other observations

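In a few genes 1 library stood far from the rest. Slc15a2, the gene of a peptide transporter, was at 35.1, 13.2 and 18.4 RPKM in wild type and at 33.0 RPKM in ZnF4-/- replicate 1, and was listed at 0.01 RPKM in ZnF4-/- replicate 2. It did not pass (-2.54 ± 1.59, adjusted p = 0.432 by limma). Eps8l1 was at 0.02 RPKM in wild type replicate 1 and at 4.65 and 3.57 RPKM in wild type 2A and 2B, against 6.94 and 9.54 RPKM in ZnF4-/- (adjusted p = 0.106). Both were chosen after their values were seen.

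Between the batches 10 rises and 1 fall differed by more than 1 log2 unit. They included Prss34, Prg2 and Mcpt8, larger in the 76 bp batch, and Iigp1, at 1.97 in the 76 bp and 3.18 in the 50 bp batch.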
